A study of Homo sapiens with 2 samples.

Results

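The genes described here are 10 messages for proteins that bind the 5′ cap or the poly(A) tail of mRNA, or that act in the first round of translation, out of 57820 gene IDs counted in the series. They were chosen by symbol, and each symbol matched a single gene ID. The nuclear cap-binding side holds NCBP1, NCBP2, NCBP3, CTIF, PABPN1 and the importins KPNA2 and KPNB1, and the eIF4E side holds EIF4E, EIF4E2 and PABPC1. Messenger RNA was sequenced from HEK293T, a human embryonic kidney line that carries the SV40 large T antigen. The first library came from cells that received control siRNA and the second from cells in which SRα was targeted by siRNA; dose and time of treatment are not in the labels. SRα, encoded by SRPRA, is part of the membrane receptor that docks the signal recognition particle. The comparison asks whether depleting SRα alters the level of these messages. With 1 library per group there is no replicate check and no test between conditions, and every interval given is a 95% interval for counting error alone. In such bulk RNA, a message held by fewer cells and a lower level per cell cannot be told apart.

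A new mRNA leaves transcription with the nuclear cap-binding complex on its cap and the nuclear poly(A)-binding protein on its tail. In the first, or pioneer, round of translation the initiation factor CTIF takes the place that eIF4G has later, and nonsense-mediated decay can act on the message. Importin β, brought in through importin α, releases the nuclear complex from the cap, eIF4E takes over the cap and cytoplasmic poly(A)-binding protein takes over the tail.

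The libraries held 2445200 and 3896721 reads assigned to genes. SRPRA had 507 reads under control siRNA and 449 under SRα siRNA, a ratio of 0.570 (0.501 to 0.648) after scaling to library size. Of markers of HEK293T cells, the neurofilament gene NEFM and the intermediate filament gene VIM were read at 110 to 386 CPM (counts scaled to library size), and LIN28B at 37.6 to 41.8 CPM, while the kidney factor PAX2 had 1 and 7 reads. NEFM and VIM were higher under SRα siRNA, with ratios of 1.24 (1.07 to 1.45) and 1.24 (1.14 to 1.35). Markers of blood (PTPRC), fibroblasts (COL1A2) and endothelium (CDH5) had 0 reads, and the liver marker ALB had 0 and 1. NEFL for HEK293T cells and PECAM1 for endothelium were also chosen as markers, but neither symbol matched a counted gene. At least 76.5% of the alignments entered for either library were not unique and were left uncounted, which bears on the genes below that have near-identical copies.

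All 10 messages were detected in both libraries, over a wide range of levels. Level is given as CPM divided by kilobases of merged exons (RPKM), which allows genes of different length to be compared. The importin β message KPNB1 was highest at 207 RPKM in both libraries, followed by the importin α message KPNA2 at 173 RPKM (control siRNA) and 171 RPKM (SRα siRNA), and by PABPC1 at 83.0 and 88.6. NCBP1 had 31.1 and 31.8 RPKM, EIF4E2 15.8 and 20.6, and NCBP2 11.2 and 15.2. NCBP3 had 4.42 and 4.93 RPKM, PABPN1 3.75 and 4.16, CTIF 1.55 and 1.51, and EIF4E 0.718 and 0.665. On this length the order was the same in both libraries, and the neighbours whose intervals overlapped were NCBP3 and PABPN1 in both libraries and CTIF and EIF4E in the control siRNA library. KPNB1 lay above 98.2% of measured genes (those with a mean of at least 1 CPM) in each library, and EIF4E above 13.5% and 12.9%. Below PABPC1, this order depends on the length used. All reads of a gene, those of untranslated parts included, were also divided by its coding length. EIF4E then had 15.4 and 14.3 CPM per kilobase of coding length and CTIF 6.94 and 6.77. On that length EIF4E passed CTIF, and EIF4E2 and NCBP2 passed NCBP1. Per kilobase of the longest transcript, PABPN1 (5.25 and 5.82) passed NCBP3 (5.09 and 5.68) in both libraries, and EIF4E2 (32.2 and 42.0) lay below NCBP1 (33.3 and 34.0) under control siRNA and above it under SRα siRNA.

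**Figure D1:**
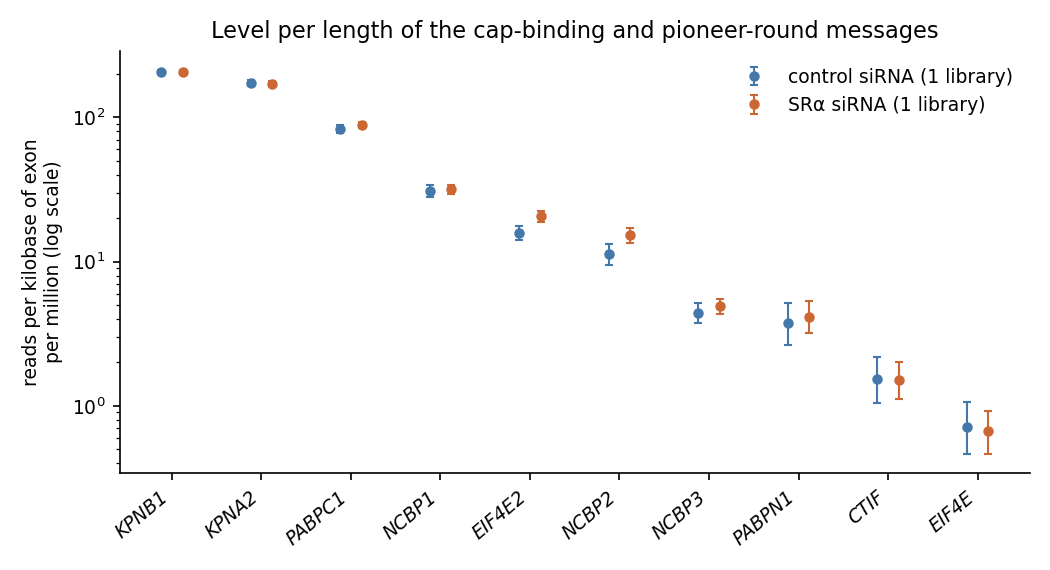
Level of each message in the control siRNA library (blue) and the SRα siRNA library (orange), in RPKM on a log axis, with 95% counting intervals. The 2 libraries give the same order, from KPNB1 at 207 down to EIF4E at 0.718 and 0.665, and the pair of points is set apart beyond its intervals for EIF4E2 (15.8 and 20.6) and NCBP2 (11.2 and 15.2).

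Between the libraries, 2 of the 10 messages had a ratio whose counting interval left out equality, and both were higher in the SRα siRNA library. They were NCBP2 at 1.36-fold and EIF4E2 at 1.30-fold, members of opposite sides. None of the 10 was 2-fold apart; over the 12747 measured genes, 2.15% reached a 2-fold higher level and 2.57% a 2-fold lower one. Intervals lay above 0 on the log2 scale for 5.46% of measured genes and below 0 for 3.39%; scaled by library totals, the shares were 3.57% and 4.81%, and NCBP2 and EIF4E2 kept intervals above 0. Among the 2945 genes read at 50 to 200 CPM, the range that holds NCBP2 and EIF4E2, the shares were 7.61% and 4.11%. The median log2 ratio was 0.03 for the 7 messages of the nuclear side (-0.01 to 0.04 over the other scalings, so its sign is not settled) and 0.09 for the 3 of the eIF4E side, beside 0.01 for all measured genes.

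**Figure D2:**
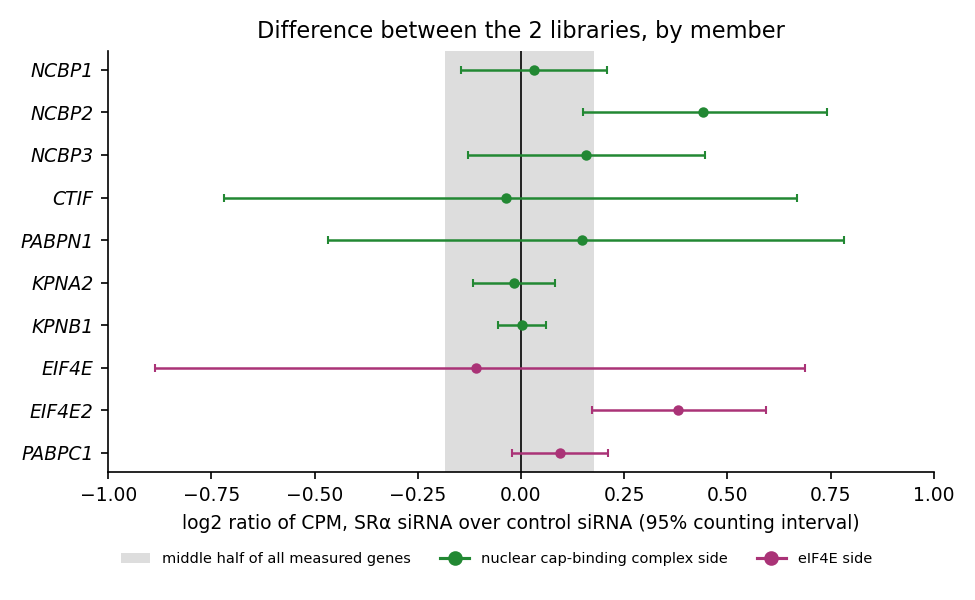
Log2 ratio of CPM (SRα siRNA over control siRNA) for each message, with its 95% counting interval; the grey band spans the quartiles of the 12747 measured genes, -0.18 to 0.18. NCBP2 (0.44) and EIF4E2 (0.38) lie right of 0 with their whole intervals, KPNB1 and KPNA2 have the narrowest intervals, and CTIF, PABPN1 and EIF4E have the widest.

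NCBP1 (ENSG00000136937.8) encodes CBP80, the large subunit of the nuclear cap-binding complex, which holds the complex together and contacts its partners. Its message had 427 and 678 reads (control siRNA first here and below), or 172 and 176 CPM. The log2 ratio was 0.03 (-0.15 to 0.21), which as a plain ratio spans 0.904 to 1.16. NCBP2 (ENSG00000114503.6) encodes CBP20, the small subunit whose pocket binds the methylated cap. It had 142 and 300 reads, or 57.3 and 78.0 CPM, and the 2 libraries' intervals for the level did not overlap. The log2 ratio of NCBP2 was 0.44 (0.15 to 0.74), and 0.475% of the 2945 genes at 50 to 200 CPM had a ratio as high. NCBP3 (ENSG00000074356.12), which can partner CBP80 in place of CBP20, had 161 and 279 reads, 65.0 and 72.5 CPM and a log2 ratio of 0.16 (-0.13 to 0.45).

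The subunits of the complex can be set against each other inside a library, where library scaling plays no part. NCBP2 had 0.333 reads per NCBP1 read under control siRNA and 0.442 under SRα siRNA. The second ratio was 1.33 times the first (1.05 to 1.69). NCBP3 had 0.377 and 0.412 reads per NCBP1 read, and the change of 1.09 (0.863 to 1.38) lay within counting error.

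CTIF (ENSG00000134030.9) encodes the scaffold that links the nuclear cap-binding complex to eIF3 and so to the small ribosomal subunit. With 31 and 47 reads, or 12.5 and 12.2 CPM, its log2 ratio of -0.04 (-0.72 to 0.67) leaves ratios from 0.607 to 1.59 within counting error at this depth. EIF4G1, the scaffold at the same place in eIF4E-bound messages, was read 1847 and 3031 times, at a log2 ratio of 0.08 (-0.01 to 0.16). CTIF had 0.0168 and 0.0155 reads per EIF4G1 read, a change of 0.924 (0.572 to 1.51).

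The importins gave the most precise values. KPNB1 (ENSG00000108424.5) had 3932 and 6116 reads, or 1588 and 1589 CPM, and a log2 ratio of 0.00 (-0.06 to 0.06). KPNA2 (ENSG00000182481.4) had 1347 and 2068 reads, or 544 and 537 CPM, and a log2 ratio of -0.02 (-0.12 to 0.08). As plain ratios, the counting intervals were 0.962 to 1.04 for KPNB1 and 0.922 to 1.06 for KPNA2. KPNA2 had 0.343 reads per KPNB1 read under control siRNA and 0.338 under SRα siRNA, a change of 0.987 (0.911 to 1.07).

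PABPN1 (ENSG00000100836.6), the nuclear poly(A)-binding protein, and PABPC1 (ENSG00000070756.9), its main cytoplasmic counterpart, which binds eIF4G and closes the message into a loop, differed widely in counted reads. PABPN1 had 36 and 62 reads, or 14.5 and 16.1 CPM, and a log2 ratio of 0.15 (-0.47 to 0.78). PABPC1 had 977 and 1620 reads, or 395 and 421 CPM, and a log2 ratio of 0.09 (-0.02 to 0.21). PABPN1 had 0.0368 and 0.0383 reads per PABPC1 read, a change of 1.04 (0.672 to 1.63). A readthrough gene, BCL2L2-PABPN1, shares 59.9% of the 50-base windows of the PABPN1 coding sequence. It had 1 and 2 reads, and the deposited counts keep reads that fit several genes apart from every gene. The exons of the 2 genes overlap on the same strand over 653 bases, 16.8% of the exonic length of PABPN1. Over all PABPN1 transcripts, 15.1% of windows occur in another gene. Reads in the shared bases could be missing from the PABPN1 count and its level undercounted, which was not tested. Its reads per PABPC1 read are uncertain as a measure of level.

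EIF4E (ENSG00000151247.8) encodes the cytoplasmic cap-binding protein that recruits eIF4G and on which bulk translation depends. Its message had 25 and 36 reads, or 10.1 and 9.36 CPM, the fewest of the 10, and a log2 ratio of -0.11 (-0.89 to 0.69). The annotated processed pseudogene EIF4EP2, an intronless copy on chromosome 17, is as long as the EIF4E coding sequence (654 bases) and identical to it at 650 positions with no gap. The stretches that hold the 4 differences are shown because only reads across them can tell the entries apart inside the coding sequence. Positions count from the A of the start codon of EIF4E on chromosome 4 (GENCODE 29 transcripts, GRCh38), and capitals mark the bases that differ.
EIF4E, bases 1 to 29: atggcgacTgtcgaaccggaaaccacccc
EIF4EP2, bases 1 to 29: atggcgacCgtcgaaccggaaaccacccc
EIF4E, bases 35 to 75: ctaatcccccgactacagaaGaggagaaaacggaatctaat
EIF4EP2, bases 35 to 75: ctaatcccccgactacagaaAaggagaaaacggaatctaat
EIF4E, bases 158 to 201: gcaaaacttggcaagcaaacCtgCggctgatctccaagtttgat
EIF4EP2, bases 158 to 201: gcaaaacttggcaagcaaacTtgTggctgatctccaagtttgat

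The differences are T9C, G55A, C178T and C181T, with the EIF4E base first, and no base differs after position 181. Of the 605 windows of 50 bases in the EIF4E coding sequence, 497 (82.1%) occur unchanged in EIF4EP2; over all EIF4E transcripts, most of whose length is untranslated, 5.24% of windows occur in any other gene. EIF4EP2 itself had 13 and 31 uniquely aligned reads, or 5.25 and 8.06 CPM, and a log2 ratio of 0.60 (-0.36 to 1.68). The other 4 copies named EIF4EP1, EIF4EP3, EIF4EP4 and EIF4EP5 had 0 reads in both libraries and match EIF4E less closely, at 427 to 620 identical bases. With the EIF4EP2 reads added to those of EIF4E, the counts were 38 and 67 and the log2 ratio 0.18 (-0.41 to 0.80), on the other side of 0 from EIF4E alone, with both intervals holding 0. The level given for EIF4E is therefore that of reads placed uniquely, and whether the EIF4EP2 reads come from EIF4E was not tested.

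Other members shared less sequence with other genes. In KPNA2, 21.9% of the coding windows occur in another gene, mostly a readthrough entry of the pseudogene KPNA2P3, and in PABPC1 20.7%, mostly in the intronless PABPC3. EIF4E2 shared 3.77%, and NCBP1, NCBP2, NCBP3, CTIF and KPNB1 shared 0 of their coding windows. Of 31 entries named after a member as a numbered pseudogene copy, a like gene or an antisense gene, 27 had 0 reads in both libraries. The 4 with reads were NCBP2AS2, a protein-coding gene on the opposite strand beside NCBP2, with 38 and 61, EIF4EP2, EIF4E2P2 with 0 and 1, and the germline-type gene PABPC1L with 1 and 13.

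**Figure D3:**
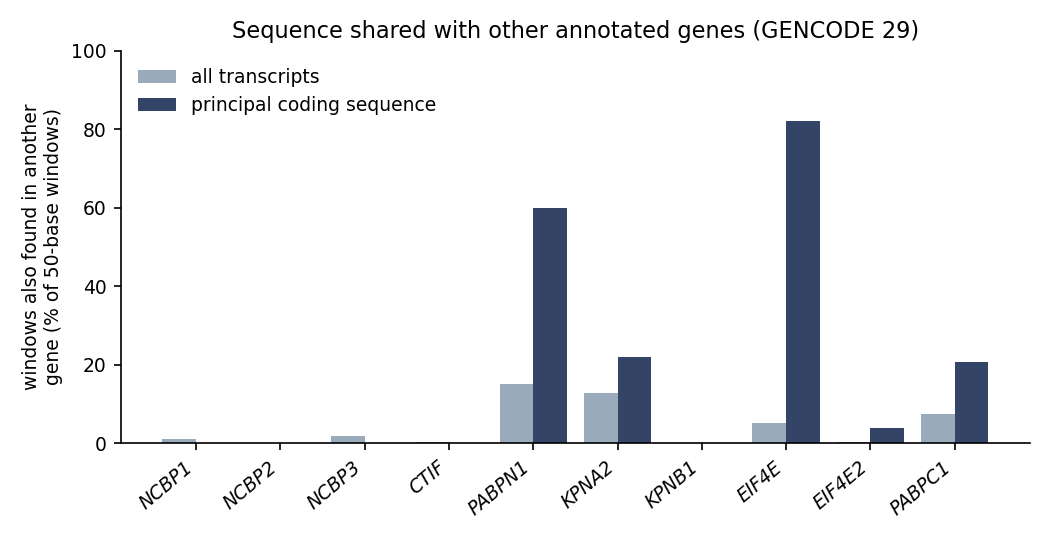
Share of 50-base windows of each member that occur on the same strand in a transcript of another GENCODE 29 gene, over all its transcripts (light bars) and over its principal coding sequence (dark bars), in percent. The coding sequences of EIF4E (82.1%) and PABPN1 (59.9%) stand highest, KPNA2 and PABPC1 lie near 20%, and NCBP1, NCBP2, NCBP3, CTIF and KPNB1 have no dark bar.

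EIF4E2 (ENSG00000135930.9) encodes 4EHP, a relative of eIF4E that binds the cap but not eIF4G and, with GIGYF2, represses translation. It had 281 and 569 reads, or 113 and 148 CPM, and the 2 intervals for the level did not overlap. Its log2 ratio was 0.38 (0.17 to 0.59), and 1.22% of the genes at 50 to 200 CPM had a ratio as high. The ratios of the marker genes NEFM and VIM (1.24 each) were of similar size to those of EIF4E2 and NCBP2, and their part in these was not tested. GIGYF2 was read 363 and 611 times, at a log2 ratio of 0.12 (-0.07 to 0.31). EIF4E2 had 1.98 reads per NCBP2 read under control siRNA and 1.90 under SRα siRNA, a change within counting error of 0.958 (0.743 to 1.23). Other genes on the opposite strand overlap 24.2% of the exonic bases of EIF4E2, with 16.6% under the antisense gene AC073254.1 and 7.54% under TIGD1. Use of strand in the counting is not given. Reads in these bases could have been left out of the EIF4E2 count, or could belong to an opposite gene that was not counted. TIGD1 had 7 and 13 reads, and no count is given here for AC073254.1. Ratios were lower in GC-rich genes, from a median of 0.08 in the lowest of 10 GC bins of genes with at least 50 CPM to -0.05 in the highest; the bins that hold NCBP2 (40.3% GC) and EIF4E2 (46.9%) had medians of 0.06 and 0.05.

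Summed over members, the nuclear side had 6076 reads and the eIF4E side 1283 under control siRNA, against 9550 and 2225 under SRα siRNA. The nuclear side thus had 4.74 and 4.29 reads per read of the eIF4E side, a change of 0.906 (0.839 to 0.978). This sum is mostly 3 genes: KPNB1 gave 64.7% and 64.0% of the reads of the nuclear side, KPNA2 22.2% and 21.7%, and PABPC1 76.1% and 72.8% of those of the eIF4E side. Without the importins the change was 0.988 (0.883 to 1.11), which no longer leaves out equality. Without the poly(A)-binding proteins it was 0.795 (0.688 to 0.917), a comparison in which EIF4E2 supplies most of the eIF4E side. Without importins and poly(A)-binding proteins it was 0.867 (0.733 to 1.02). The balance of the 2 sides therefore moved with the genes summed. NCBP1 alone had 17.1 and 18.8 reads per EIF4E read, a change of 1.10 (0.625 to 1.92), or 11.2 and 10.1 with EIF4EP2 counted in, a change of 0.901 (0.577 to 1.39). EIF4E2 had 11.2 and 15.8 reads per EIF4E read, a change of 1.41 (0.792 to 2.46). Of the 10 pairs compared, the interval left out equality for NCBP2 over NCBP1 alone, with no adjustment for the number of pairs.

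**Figure D4:**
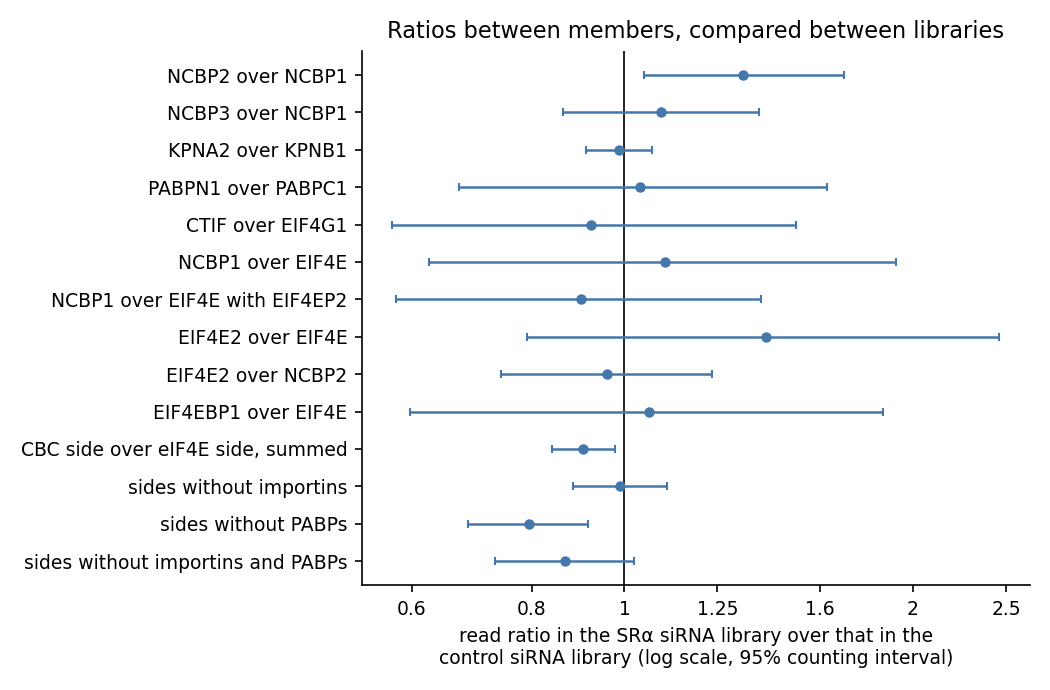
Read ratio between 2 genes or 2 groups of genes in the SRα siRNA library, divided by the same ratio in the control siRNA library, on a log axis with 95% counting intervals. NCBP2 over NCBP1 (1.33), the summed sides (0.906) and the sides without poly(A)-binding proteins (PABPs, 0.795) have intervals that leave out 1, and the others do not.

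Other genes of these pathways were taken from 6 lists of 110 symbols, of which 97 were measured. The lists were chosen with earlier results of these data known, which limits the comparison with all genes. Of the 97, 15 had an interval above 0 and 2 below, against 5.46% and 3.39% of all measured genes. The 15 include PABPC1L, which reached a mean of 1 CPM only through the SRα siRNA library, where it was high. The lists are rich in well-read genes, whose intervals are narrow: of the 67 list members with at least 50 CPM, 13 lay above 0 and 0 below, against 11.7% and 4.89% of all 4007 such genes. Their median log2 ratio was 0.09, beside 0.04 for the 4007. The 0 below depends on this limit, since MKNK2, with 55.3 and 40.8 CPM, has a mean just under 50. A ratio above 0 was seen for 67 of the 97 and 50 of the 67. Among all genes it was seen for 6554 of the 12747 measured and 2399 of the 4007. Over the 5 scalings tried, 12 to 17 of the 97 lay above 0 and 1 to 4 below; RAN, UPF3B and DCPS kept their place above 0 in 3 of the 5, and the others named below as above 0 did in all.

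Partners of the nuclear cap-binding complex in RNA processing and export gave 0 intervals that left out 0 among 14 measured members. Their median was 0.08, and 10 had a ratio above 0, beside 6554 of all 12747 measured genes and 2399 of the 4007 with at least 50 CPM. The list holds NCBP2AS2, at 0.05 (-0.56 to 0.67), which shares the name of NCBP2 and its locus and is no partner of the complex; without it, a set chosen after seeing the data, 9 of 13 were above 0 (median 0.11). SRRT (ARS2), which links the complex to RNA processing, had 0.04 (-0.11 to 0.18). The values ran from THOC6, a subunit of the THO export complex, at -0.17 (-0.59 to 0.26) to the export factor NXT1 at 0.32 (-0.12 to 0.77). Among 18 measured relatives of the importins and their Ran cycle, 4 had intervals above 0 and 0 below (median 0.07). Each of the 4 had at least 50 CPM, where 11.7% of all genes had intervals above 0. The 4, named after their values were seen, were CSE1L, which returns importin α to the cytoplasm, at 0.17 (0.10 to 0.24), IPO5 at 0.13 (0.05 to 0.21), IPO7 at 0.17 (0.05 to 0.29) and RAN at 0.07 (0.01 to 0.13). The other importin α messages ran from KPNA3 at -0.07 (-0.28 to 0.14) to KPNA5 at 0.19 (-0.17 to 0.55) among those with at least 5 CPM.

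The eIF4F list, with the helicase, scaffolds and regulators that act on eIF4E, gave 2 intervals above 0 and 2 below among 18 measured members (median 0.10). Over all measured genes the shares were 5.46% above and 3.39% below. EIF4B, which stimulates the helicase, had 53 and 132 reads and the highest log2 ratio, 0.68 (0.21 to 1.17). EIF4G2, a scaffold that does not bind eIF4E, had 0.18 (0.09 to 0.26). The lowest was EIF4EBP2, an inhibitor that competes with eIF4G for eIF4E, at -0.45 (-0.90 to -0.0031), below 0 under 4 of the 5 scalings. MKNK2, a kinase that phosphorylates eIF4E and the other gene below 0, had -0.44 (-0.78 to -0.10). The main inhibitor gene EIF4EBP1 had 291 and 445 reads and -0.02 (-0.24 to 0.20), and the helicase EIF4A1 had 26 and 37 reads and -0.12 (-0.89 to 0.66). Sequence shared with other genes was measured for the members alone, not for the list genes. The values of list genes, EIF4B and EIF4A1 among them, are those of uniquely placed reads. Whether copies bear on these values was not tested.

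Poly(A)-binding relatives and regulators gave 2 intervals above 0 and 0 below among 10 measured members (median 0.10). Over all measured genes the shares were 5.46% and 3.39%. The 2 above 0 were the cytoplasmic paralogue PABPC4 at 0.18 (0.04 to 0.33), and PABPC1L, whose 1 and 13 reads give 2.65 (0.33 to 8.47). PABPC1L was measured only through the SRα siRNA library (0.404 CPM under control siRNA, 3.38 under SRα siRNA). Its high ratio follows in part from that filter and lends no support. Genes of this list with at least 5 CPM ran from PAIP1 at -0.09 (-0.70 to 0.54) to PAIP2B at 0.23 (-0.18 to 0.64), both regulators of cytoplasmic poly(A)-binding protein. Of 25 measured CTIF partners and pioneer-round factors, 6 had intervals above 0 and 0 below. The median was 0.12, and 20 of the 25 had a ratio above 0, beside 6554 of all 12747 measured genes. Most of the list had at least 50 CPM, where 2399 of all 4007 genes had a ratio above 0. Each of the 6 had at least 50 CPM, where 11.7% of all genes had intervals above 0. Among the members of this list with at least 5 CPM, EIF3J, a loosely bound eIF3 subunit, was highest at 0.30 (0.07 to 0.54). The other 5 with intervals above 0, EIF3E, UPF3B, SLBP, EIF3D and EIF3A, had 0.13 to 0.23. SLBP binds the stem-loop of histone messages and UPF3B ties the exon junction complex to nonsense-mediated decay. EIF3G, the eIF3 subunit that CTIF contacts, had -0.02 (-0.14 to 0.10), the exon junction helicase EIF4A3 had 0.07 (-0.01 to 0.15), UPF1 had -0.04 (-0.22 to 0.14), and the RNA helicase DDX19A was lowest at -0.29 (-0.61 to 0.04).

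**Figure D5:**
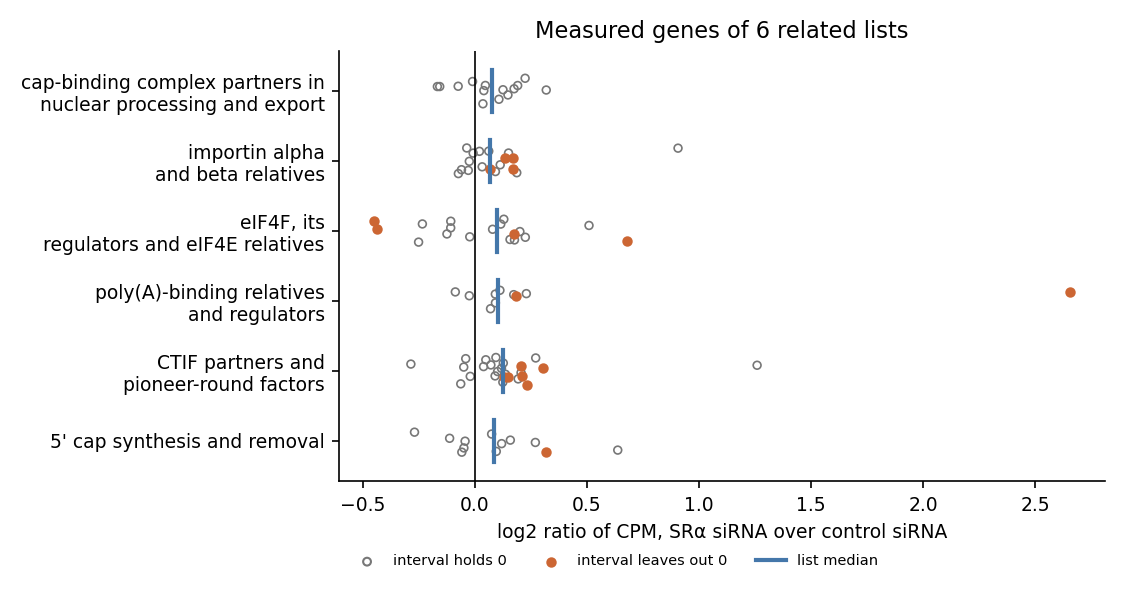
Log2 ratio of CPM, SRα siRNA over control siRNA, for each measured gene of 6 related lists, with filled points where the 95% counting interval leaves out 0 and a bar at each list's median. The medians lie between 0.07 and 0.12, and the point farthest right is PABPC1L (2.65), from 1 and 13 reads. PABPC1L counts as measured only through the SRα siRNA library.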

How the data were processed

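Messenger RNA from HEK293T cells was sequenced in 2 libraries, 1 per group. The authors deposited raw read counts per gene ID, with no normalization. Cutadapt and STAR 2.5.2b with genome build hg19 were used, per the submitters' processing notes; RNA was extracted with TRIzol and libraries made with a TruSeq Stranded mRNA kit, per the labels' protocols. The counting program, its strand setting, the annotation release and the read length: not given in the sources used here. Other experiments of the design (ribosome profiling and cap-bound mRNA) were not analysed here. The 5 summary lines that name no gene were left out of library sizes; of uniquely aligned reads, 7.23% and 7.49% lay in no gene and 4.67% and 4.58% fitted several.

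Counts were scaled with TMM factors from edgeR 4.0.16 (R 4.3.3). Log2 ratios used a prior count of 0.5, and intervals are exact (Clopper-Pearson) binomial intervals of the 2 counts given their sum. Ratios between genes have exact conditional odds ratio intervals, and levels have exact Poisson intervals. No molecular identifiers are recorded, so PCR copies count as separate reads and the intervals hold counting error alone. A gene was measured if its mean CPM reached 1. Lengths, GC content, overlaps and shared windows came from GENCODE 29 (GRCh38) by gene ID, and no coordinates were carried between builds. Interval coverage was checked on simulated Poisson counts, which hold the same counting error that the intervals assume. That check cannot speak to variation between libraries or to PCR copies. Of 110 list symbols, 107 matched a row; the other 3 were not analysed here.

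The members, lists and tests were chosen with earlier results of these data known. Named genes are all members, SRPRA, entries named after members, the highest and lowest of each list with at least 5 CPM, and EIF4G1, EIF4A1, EIF4A3, UPF1, EIF3G, SRRT and EIF4EBP1; others were named after their values were seen. With 2 libraries no likeness between gene patterns is defined. Scaling was also tried with library totals, with upper quartile factors, with DESeq2 1.42.0 and with totals without mitochondrially encoded and the 10 most-read genes; further alternatives were a prior count of 2, other filters, other lengths and other sets of summed genes. Python 3.11.15 with scipy 1.17.1, pandas 2.3.3 and Biopython 1.88 was used.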

Additional observations from a re-analysis of the deposited data

How the results depend on the processing

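NCBP2 ran from 0.41 to 0.45 and EIF4E2 from 0.35 to 0.39 (log2) over 5 scalings and priors, and their intervals lay above 0 under each. With library totals, and with totals without mitochondrial and the 10 most-read genes, NCBP1 and KPNB1 passed to the other side of 0 (lowest -0.01 and -0.03), so 5 members were above 0 in place of 7. The median of all measured genes also lay below 0 under these scalings (-0.03 and -0.02). The side medians moved by less than the spread among members in these settings. EIF4E ran from -0.14 to 0.18, the highest with EIF4EP2 reads added, an alternative chosen after seeing the data. The summed nuclear side over the eIF4E side changed by 0.988 without importins, 0.795 without PABPC1 and PABPN1 and 0.867 without all of these, against 0.906; the last set was also added later. The numbers of genes at least 2-fold higher and lower (274 and 328) were 2872 and 2029 with no filter and 32 and 30 at a mean of at least 5 CPM, where fewer low genes enter; with a prior count of 2, 178 were lower. Other scalings left both counts within 1.5 times. Of 40 levels per length under another length, 34 left their counting interval. No paired analysis was possible because each group has 1 library. Depth limits CTIF, PABPN1 and EIF4E most.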

Other observations

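Enzymes that make or remove the 5′ cap had 1 of 12 measured members with an interval above 0 and 0 below, with a median log2 ratio of 0.08. Over all measured genes, 5.46% had intervals above 0 and 3.39% below. At 50 to 200 CPM, the range that holds DCPS, 7.61% lay above 0. DCPS, the scavenger enzyme that hydrolyses the cap left after decay from the 3′ end, was read 151 and 292 times, at a log2 ratio of 0.31 (0.03 to 0.61); under library totals, with or without the most-read genes, its interval held 0. The capping enzyme RNGTT had 154 and 252 reads and 0.07 (-0.22 to 0.37), and the cap methyltransferase RNMT had 0.10 (-0.26 to 0.46). RAMAC, the small activator of RNMT, was highest of the list at 0.64 (-0.22 to 1.59) from 16 and 39 reads. The decapping enzyme DCP2 had -0.11 (-0.43 to 0.21), and its cofactor DCP1B was lowest at -0.27 (-0.73 to 0.19).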
